A study of Mus musculus with 146 samples.

Results

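The 10 genes described here are Prdx1, Prdx2, Prdx3, Prdx4, Prdx5 and Prdx6, the glutathione transferases Gstp1 and Gstp2, the superoxide dismutase Sod1 and the glutathione peroxidase Gpx4. They were chosen by name, as enzymes that remove peroxides and superoxide or that use glutathione, and all 10 were found among the 52605 gene symbols measured. RNA was measured in 146 single-cell libraries from the ovaries of C57/BL6J mice at day 0.5 after birth, when oocyte nests break apart and primordial follicles form. Ovaries of littermates were pooled, the germ cells were picked by mouth pipette, and cDNA that amplified Foxl2 was set aside while cDNA that amplified Vasa (Ddx4) was sequenced. No cell was treated and no gene was altered, so the only comparison the design gives is between states of the germ cells. No animal is named for a cell, so all cells count as 1 sample, no test was made from them, and each SD below is the spread over cells.

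Peroxiredoxins reduce hydrogen peroxide and organic peroxides with a reactive cysteine. Prdx1, Prdx2, Prdx3 and Prdx4 are typical peroxiredoxins that thioredoxin recycles, with Prdx1 and Prdx2 in the cytosol, Prdx3 in mitochondria and Prdx4 in the endoplasmic reticulum. Prdx5 is an atypical form found in several compartments, and Prdx6 uses glutathione and also acts on phospholipids. Sod1 turns superoxide into hydrogen peroxide in the cytosol. Gpx4 is a selenoprotein that reduces lipid peroxides in membranes and guards cells against ferroptosis. The pi-class transferases Gstp1 and Gstp2 join glutathione to reactive compounds. Oocytes are long-lived cells that rest in the ovary before they grow, and these enzymes are part of their defence against oxidative damage.

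Some libraries were not independent of each other. In 7 pairs of libraries the log2(TPM + 1) values correlated at 0.986 to 0.994, while the highest correlation between any other libraries was 0.876 and the median was 0.719. Their read counts over genes differed with a chi-square per degree of freedom of 1.91 to 5.18, against at least 181 in the 20 next closest pairs. Each pair was therefore counted as 1 cell, with the mean TPM and the summed reads. TPM gives the share of a cell's transcripts that come from a gene, with transcript length taken into account. In 1 library Ddx4, the germ cell marker, was at 0 TPM, only 1408459 reads were assigned to genes, and of the 10 genes Prdx1 alone had a value above 0, of 2.97 TPM. It was left out. The cells used were the 19, 88 and 31 cells of the 3 clusters described next, and every value across all cells is over these.

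In these cells between 4837063 and 33117438 reads were assigned to genes, with a median of 9669903. Ddx4 chose the cells and is no check of them. Of the 5 other germ cell markers, Dazl, Sycp3 and Stk31 had at least 1 TPM in every cell used, while Mael was under it in 2 cells and Tex101 in 12. Of 9 pregranulosa markers 7 had a mean under 1 TPM, among them Foxl2, which also chose the cells and is no check of them. Libraries with other RNA were present: summed pregranulosa markers ranged up to 81.9 TPM and summed stromal markers up to 879 TPM. Summed blood and endothelial markers reached 324531 TPM, in a cell of cluster 1 with mostly the globins Hba-a1, Hba-a2, Hbb-bs and Hbb-bt. In 11 cells the globins passed 10000 TPM (1, 6 and 4 cells of clusters 1, 2 and 3), and in 9 cells more than 15% of reads were mitochondrial (0, 6 and 3 cells). Their part in the results was not tested, and a value without them stands beside each ratio that crosses 1.5-fold when they are left out.

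The cells were split into 3 clusters rebuilt from 20 oocyte and meiosis genes, none of which is among the 10 genes. The number of 3 follows the study's states and was set beforehand, here and in every alternative clustering, so it is not a result. Cluster 1 held 19 cells, cluster 2 held 88 and cluster 3 held 31. Sycp2, a meiotic chromosome axis gene, had mean TPM of 495, 167 and 62.3 in clusters 1, 2 and 3, Figla, an oocyte transcription factor, of 309, 1698 and 1183, and Zp3, an egg coat protein, of 0.0943, 20.1 and 580. These genes made the clusters and are given only to say what the clusters are. A ratio between clusters is the log2 ratio of mean TPM after adding 1 TPM to both means, and a gene is called higher or lower where the means differ by 1.5-fold or more, which is 0.58 in log2 units.

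The largest ratio between clusters 3 and 2 was that of Gstp2, and it rests on telling near-identical transcripts apart. Gstp1 (chr19:4035407-4037985) and Gstp2 (chr19:4040285-4046023) are neighbours on the minus strand in GRCm38. Their coding sequences, of 630 bases each, differ at 12 bases (98.1% identity), and 6 of 210 codons differ in the amino acid. Of the 31-base words in the Gstp1 transcripts 38.5% also occur in Gstp2, and of those in the Gstp2 transcripts 54.8% occur in Gstp1. The coding part of exon 5 holds 6 of the 12 differences, and is shown because reads over it can tell the copies apart. It is given 5′ to 3′ on the coding strand, and the capitals mark the bases that differ.

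Gstp1, exon 5, chr19:4036688-4036791: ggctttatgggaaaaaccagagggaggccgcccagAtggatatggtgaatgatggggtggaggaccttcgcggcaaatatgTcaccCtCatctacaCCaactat
Gstp2, exon 5, chr19:4040982-4041085: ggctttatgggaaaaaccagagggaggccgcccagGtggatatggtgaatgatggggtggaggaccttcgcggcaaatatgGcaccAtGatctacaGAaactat

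The 250 bases before the RefSeq starts are less alike. These starts differ from the gene bounds given above, which are those of GENCODE M21. The Gstp2 window lies inside the stretch given for Gstp2, and the Gstp1 window overlaps that of Gstp1. In an alignment of the RefSeq (GRCm38.p6) windows 208 of 250 bases (83.2%) were identical, with 27 mismatches and 30 gaps. They are shown because the copies differed in which cells held them, with no part in capitals.

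Gstp1, upstream, chr19:4037913-4038162: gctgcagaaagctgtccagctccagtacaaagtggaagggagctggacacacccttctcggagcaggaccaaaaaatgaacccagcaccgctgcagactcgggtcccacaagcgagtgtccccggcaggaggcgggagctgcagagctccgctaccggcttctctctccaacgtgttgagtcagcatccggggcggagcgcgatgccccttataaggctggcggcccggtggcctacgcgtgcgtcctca
Gstp2, upstream, chr19:4042222-4042471: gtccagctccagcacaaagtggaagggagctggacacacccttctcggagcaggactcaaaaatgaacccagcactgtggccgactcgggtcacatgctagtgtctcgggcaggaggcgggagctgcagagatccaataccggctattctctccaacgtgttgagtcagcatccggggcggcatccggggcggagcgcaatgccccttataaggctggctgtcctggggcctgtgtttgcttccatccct

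Gstp2 was mostly a transcript of cluster 3. At least 1 TPM was found in 20 of 31 cells of cluster 3 (64.5%, exact 95% interval 45.4 to 80.8, which covers counting error only), in 2 of 88 cells of cluster 2 (2.27%, 0.276 to 7.97) and in 1 of 19 cells of cluster 1 (5.26%, 0.133 to 26.03). Its TPM in cluster 3 had a lowest value of 0, a median of 38.7 and a highest value of 336, with a mean of 64.8 ± 79.2 (SD, n = 31). In clusters 1 and 2 the medians were 0 and the highest values were 47.8 and 67.1 TPM. The ranges overlapped, and 14 cells of cluster 3 lay above every cell of cluster 2. Across all cells Gstp2 had a rho of 0.36 with reads and of -0.43 with the spike-in share of reads. The median number of genes with at least 1 read was 14506 in cluster 3 and 12279 in cluster 2. The part of these measures in the Gstp2 level was not tested. The log2 ratio of Gstp2 for cluster 3 over cluster 2 was 4.81, and it lay between 4.60 and 5.38 when any 1 cell was left out. The log2 ratio of cluster 2 over cluster 1 was -0.61 and came to 1.15 without library S002, the 1 cell of cluster 1 that held it, and to -0.55, under 1.5-fold, without the 9 cells rich in mitochondrial reads.

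Gstp1 did not share this restriction. It was found at 1 TPM or more in 3 of 19, 9 of 88 and 9 of 31 cells of clusters 1, 2 and 3, with a highest value of 185 TPM in cluster 2. Its mean was 3.28 ± 7.94 (SD, n = 19), 6.99 ± 28.1 (SD, n = 88) and 11.6 ± 23.8 TPM (SD, n = 31). The median was 0 in each cluster, so the ratios rest on few cells. The log2 ratio of cluster 2 over cluster 1 was 0.90 and came to 0.48, under 1.5-fold, without 1 cell (library S037). Its direction turned to -0.18 with clusters made from the 2000 most variable genes and to -0.14 when mean log2(TPM + 1) was subtracted. From cluster 2 to 3 Gstp1 stood at a log2 ratio of 0.65, which came to 0.33 without library S078.

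In most cells that held either gene, nearly all reads of the pair went to 1 copy. In clusters 1 and 2, 12 cells had only Gstp1 at 1 TPM or more, 3 had only Gstp2 and none had both, counts too small to read an exclusion from. In the 9 Gstp1 cells of cluster 2 between 7 and 939 reads were assigned to Gstp1 and at most 2.56 to Gstp2. In the 3 Gstp1 cells of cluster 1 between 47 and 184 reads were assigned to Gstp1 and 0 to Gstp2. In cluster 3, 11 cells had only Gstp2, with 203 to 1811 reads for Gstp2 and at most 1.41 for Gstp1, 9 had both, and none had Gstp1 alone. In the 9 cells with both, Gstp2 took between 44.7% and 93.4% of the reads of the pair, with a median of 59.7%. The reads are estimates that Salmon divides between similar transcripts, and the share it could have misplaced was not tested. Gstp1 and Gstp2 summed gave a log2 ratio of 0.45 for cluster 2 over cluster 1, under 1.5-fold, of 3.05 for cluster 3 over cluster 2, where Gstp2 alone gave 4.81, and of 3.499 for cluster 3 over cluster 1.

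**Figure D1:**
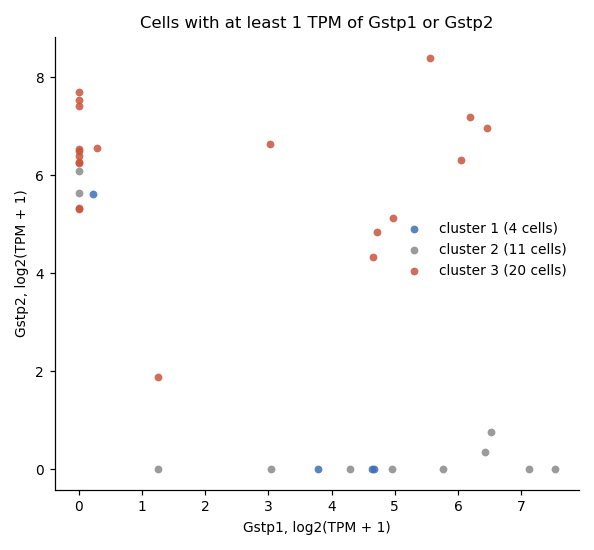
Gstp1 against Gstp2, both as log2(TPM + 1), in the 35 cells with at least 1 TPM of either, 1 point per cell, coloured by cluster. Cells of clusters 1 and 2 lie along an axis, while 9 of the 20 cells of cluster 3 hold both.

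Of the typical peroxiredoxins of the cytosol, Prdx1 was the most abundant of the 10 genes and held a smaller share of TPM in the later clusters. Its mean over all cells, of 2028 ± 1237 TPM (SD), ranked 15 among 19767 coding genes. It was the highest of the 10 in all cells but 6 and made up 59.6% of their summed TPM. In cluster 1 its lowest, median and highest TPM were 1568, 2653 and 7493, in cluster 2 they were 2.04, 1987 and 6293, and in cluster 3 they were 3.68, 1335 and 3102. All 19 cells of cluster 1 were high, 30 of 88 cells of cluster 2 lay below every one of them, and 22 of 31 cells of cluster 3 did so. The mean was 3334 ± 1748 (SD, n = 19) in cluster 1, 1989 ± 1051 (SD, n = 88) in cluster 2 and 1337 ± 613 (SD, n = 31) in cluster 3. The log2 ratio of cluster 3 over cluster 1 was -1.32, with -1.38 to -1.21 when any 1 cell was left out. The step from cluster 1 to 2 was -0.74, and that from 2 to 3 was -0.57, just under 1.5-fold. That second step was -0.64 without library S138, -0.62 without the 11 cells rich in globin and 0.50, with the direction turned, when TPM was divided by spike-in TPM.

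A few cells were nearly without Prdx1. The lowest 3 had 2.04, 3.68 and 8.79 TPM and the next 2 had 119.5 and 148 TPM. In 4 of these 5 cells more than 15% of reads were mitochondrial, with 15.8% to 23.9%, while the median of all cells was 6.27%. Across all cells the rho (Spearman) of Prdx1 with the mitochondrial share of reads was -0.57, and within cluster 2 it was -0.54. Both are shares of the same library, and the part of the mitochondrial reads in the Prdx1 level was not tested. Without the 9 cells above 15% the calls for Prdx1 were the same.

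The upstream window of Prdx1 (chr4:116685349-116685598, GRCm38.p6, plus strand) is shown because Prdx1 was the highest of the set. The capitals mark the match to TGACNNNGC, the core letters of the antioxidant response element that Nrf2 binds, read here on the other strand.

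Prdx1, upstream, chr4:116685349-116685598: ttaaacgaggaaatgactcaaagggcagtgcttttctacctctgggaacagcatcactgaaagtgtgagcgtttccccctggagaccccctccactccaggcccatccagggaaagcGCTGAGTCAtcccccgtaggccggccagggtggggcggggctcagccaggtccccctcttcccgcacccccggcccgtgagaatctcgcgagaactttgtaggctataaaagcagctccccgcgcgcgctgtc

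Searched on both strands, these letters occurred in 10.2% of 32851 windows of 250 bases before RefSeq starts, and among the 9 of the 10 genes with a window in that table they occurred in those of Prdx1 and Sod1. A match is a description of letters and not evidence of binding.

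Prdx2, the other typical peroxiredoxin of the cytosol, was either present or nearly absent in a cell. Over all cells, 62 were under 1 TPM, 11 were between 1 and 10 and 65 were at 10 TPM or more. In cluster 1 the lowest, median and highest TPM were 0, 33.9 and 250, in cluster 2 they were 0, 0.371 and 236, and in cluster 3 they were 0, 55.6 and 238. Cells at 10 TPM or more were 11 of 19, 29 of 88 and 25 of 31 in clusters 1, 2 and 3, so cluster 2 had the smallest share of such cells, and the ranges overlapped throughout. The mean was 46.7 ± 61.8 (SD, n = 19), 26.7 ± 51.5 (SD, n = 88) and 78.4 ± 71.3 TPM (SD, n = 31), and the log2 ratio was -0.78 from cluster 1 to 2 and 1.52 from 2 to 3. The first of these came to -0.39, under 1.5-fold, without library S126, which had both the highest Prdx2 of cluster 1 and the 324516 TPM of globin, to -0.37 without the 11 cells rich in globin, and to 0.39, with the direction turned, with clusters made from the 2000 most variable genes. Prdx2 is abundant in red blood cells as background, and across all cells its rho with the summed blood and endothelial markers was 0.19. Its rho with the spike-in share of reads was -0.40, and the part of that share was not tested.

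Prdx3, the mitochondrial peroxiredoxin, was low and was higher in cluster 3. Its lowest, median and highest TPM were 0, 16.3 and 47.6 in cluster 1, 0, 14.9 and 172 in cluster 2, and 0, 35.8 and 72.4 in cluster 3. At least 10 TPM was found in 11 of 19, 52 of 88 and 26 of 31 cells. The highest values lay in cluster 2 although its median was the lowest, and the groups overlapped. The mean was 15.1 ± 12.46 (SD, n = 19), 21.5 ± 28.2 (SD, n = 88) and 35.1 ± 22.6 TPM (SD, n = 31), with a log2 ratio of 1.16 for cluster 3 over cluster 1. From cluster 1 to 2 it was 0.48, with 0.65 without library S026 and -0.26, with the direction turned, as a difference of mean log2(TPM + 1).

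Prdx4, the peroxiredoxin of the endoplasmic reticulum, had the lowest ratio of the 10 genes between cluster 3 and cluster 1. Its lowest, median and highest TPM were 305, 776 and 1973 in cluster 1, 0, 634 and 1787 in cluster 2, and 0, 230 and 849 in cluster 3. Of the 31 cells of cluster 3, 22 lay below every cell of cluster 1. The mean was 865 ± 435 (SD, n = 19), 662 ± 418 (SD, n = 88) and 246 ± 170 TPM (SD, n = 31). The log2 ratio was -0.39 from cluster 1 to 2, under 1.5-fold, but -0.63 with clusters made from the 2000 most variable genes and -0.93 when mean log2(TPM + 1) was subtracted. From cluster 2 to 3 it was -1.42, which came to -0.43, under 1.5-fold, when TPM was divided by spike-in TPM. Prdx4 had a rho of -0.41 with the mitochondrial share of reads. Prdx1 was above Prdx4 in 19 of 19, 86 of 88 and 30 of 31 cells of clusters 1, 2 and 3.

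Prdx5, the atypical peroxiredoxin, differed by less than 1.5-fold in mean TPM between any clusters. Its lowest, median and highest TPM were 62.998, 138.4 and 449 in cluster 1, 0, 156 and 407 in cluster 2, and 0, 124.4 and 302 in cluster 3. The 3 ranges overlapped. The log2 ratio of cluster 3 over cluster 1 was -0.52, and it came to -0.59 without the 11 cells rich in globin and to -0.60 in CPM. Cluster 3 over cluster 2 went from -0.23 to 0.70, with the direction turned, on the spike-in scale, and cluster 2 over cluster 1 from -0.29 to -0.89 as a difference of mean log2(TPM + 1).

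Prdx6, which uses glutathione, was nearly absent from most cells of cluster 1 and had its highest mean TPM in cluster 2. Its lowest, median and highest TPM were 0, 0.154 and 76.4 in cluster 1, 0, 145.3 and 1569 in cluster 2, and 0, 77.4 and 349 in cluster 3. In cluster 1, 14 of 19 cells were under 1 TPM and the other 5 were between 10 and 100 TPM. In cluster 2, 58 of 88 cells lay above every cell of cluster 1, and in cluster 3, 16 of 31 did. The mean was 14.8 ± 26.8 (SD, n = 19), 196 ± 225 (SD, n = 88) and 93.6 ± 82.9 TPM (SD, n = 31). The log2 ratio was 3.65 for cluster 2 over cluster 1, which 99.4% of the coding genes tested were below, and -1.06 for cluster 3 over cluster 2. The latter came to 0.20, with the direction turned, when TPM was divided by spike-in TPM. With clusters made from the 2000 most variable genes the first came to 0.55, under 1.5-fold, and cluster 3 over cluster 1 went from 2.59 to -0.54.

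**Figure D2:**
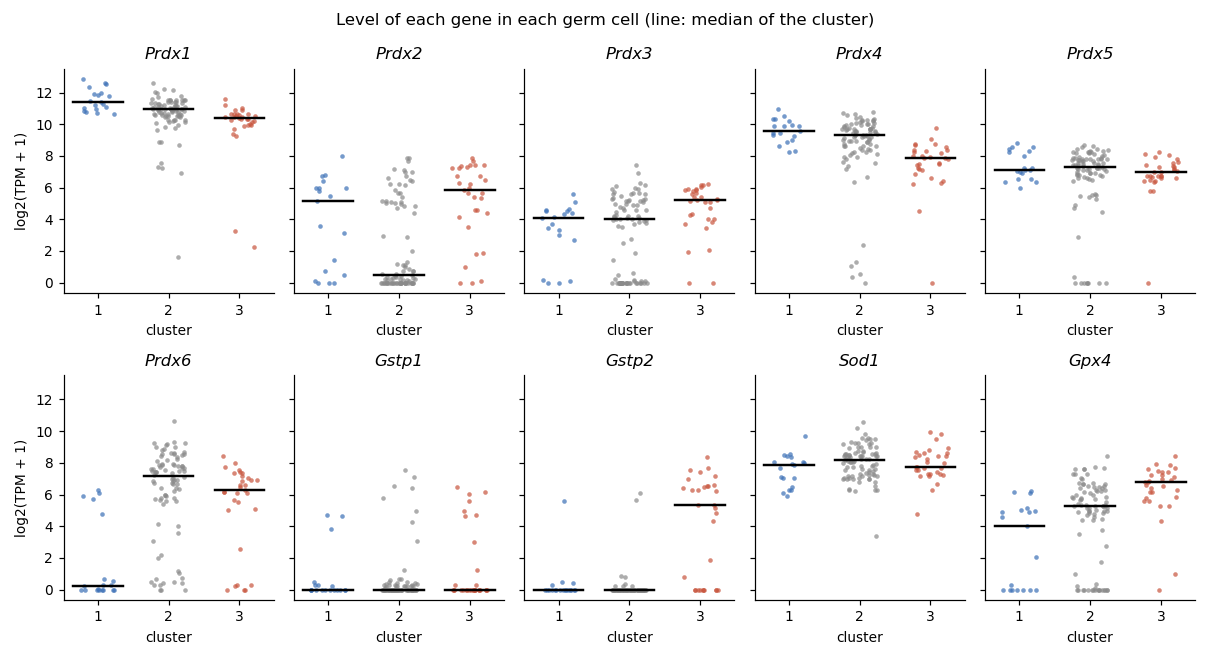
Level of each of the 10 genes as log2(TPM + 1) in each cell of clusters 1 (19 cells), 2 (88 cells) and 3 (31 cells), with the median of the cluster as a line. Prdx6 is low in most cells of cluster 1, Gstp2 is mostly in cluster 3, and Prdx2 splits into cells with and without it.

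Sod1, the cytosolic superoxide dismutase, was found in every cell. Its lowest, median and highest TPM were 58.8, 232 and 826 in cluster 1, 9.59, 287 and 1498 in cluster 2, and 25.8, 215 and 992 in cluster 3, and the ranges overlapped. The largest of its 3 log2 ratios was 0.50, for cluster 2 over cluster 1, under 1.5-fold, and it came to 0.72 without library S036 and to 0.66 in CPM. On the spike-in scale Sod1 passed 1.5-fold for cluster 3 over 2, with 0.86 where TPM gave -0.13. It also did so for cluster 3 over 1, with 1.17 where TPM gave 0.37, and CPM gave 0.60 there. Sod1 also differed along the numbers in the library titles. In cluster 2 the cells titled S022 to S041 had 431 to 1498 TPM, and those titled S110 to S139 had 72.6 to 166 TPM. Of cluster 1 only S026 (372 TPM) and S036 (826 TPM) lay in the first of these runs. The labels do not say what the numbers stand for, and their part in the Sod1 level and ratios was not tested.

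Gpx4, the lipid peroxide reductase, was higher in each later cluster. Its lowest, median and highest TPM were 0, 15.3 and 72.8 in cluster 1, 0, 37.9 and 338 in cluster 2, and 0, 110 and 339 in cluster 3. In cluster 2, 24 of 88 cells lay above every cell of cluster 1, and in cluster 3, 20 of 31 did. The mean was 21.5 ± 25.5 (SD, n = 19), 56.02 ± 61.6 (SD, n = 88) and 114.6 ± 77.3 TPM (SD, n = 31). The log2 ratio was 1.34 from cluster 1 to 2 and 1.02 from 2 to 3, and 2.36 over the whole span. Of the 31-base words of Gpx4 38.7% also occur in the pseudogene Gpx4-ps2, so its reads could be shared with that copy. Its level is therefore uncertain, and how far such sharing moved it was not tested. The words of Prdx3, Prdx4 and Prdx5 occur in no other gene of GENCODE M21, while 15.2% of those of Prdx1 occur in 215 other genes.

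Counted together, 3 of the 10 genes were higher and 3 lower in cluster 2 than in cluster 1, where 24.5% of the 12477 coding genes tested were higher and 25.4% lower (49.9% in either direction). From cluster 2 to 3, 5 were higher and 2 lower, beside 18.2% higher and 30.4% lower of 12235 genes (48.6% in either direction). From cluster 1 to 3, 6 were higher and 2 lower, beside 27.3% higher and 38.9% lower of 12597 genes (66.3% in either direction). Calls of this size were thus common among all genes. The median log2 ratio of the 10 genes was 0.095 for cluster 2 over 1, against -0.048 over all genes, 0.26 for cluster 3 over 2, against -0.21, and 0.95 for cluster 3 over 1, against -0.24. The genes differed in direction from cluster 1 to 3. Prdx1 and Prdx4 were lower, Gpx4, Gstp1, Gstp2, Prdx2, Prdx3 and Prdx6 were higher, and Prdx5 and Sod1 were under 1.5-fold. In CPM Sod1 (0.60) was also higher and Prdx5 (-0.60) also lower. That gave 7 higher and 3 lower, beside 32.6% and 34.1% of all genes. With clusters made from the 2000 most variable genes 4 genes were higher from cluster 1 to 3, without Prdx6 and without Gstp1 (0.55), beside 21.6% of all genes higher and 37.6% lower with those clusters.

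**Figure D3:**
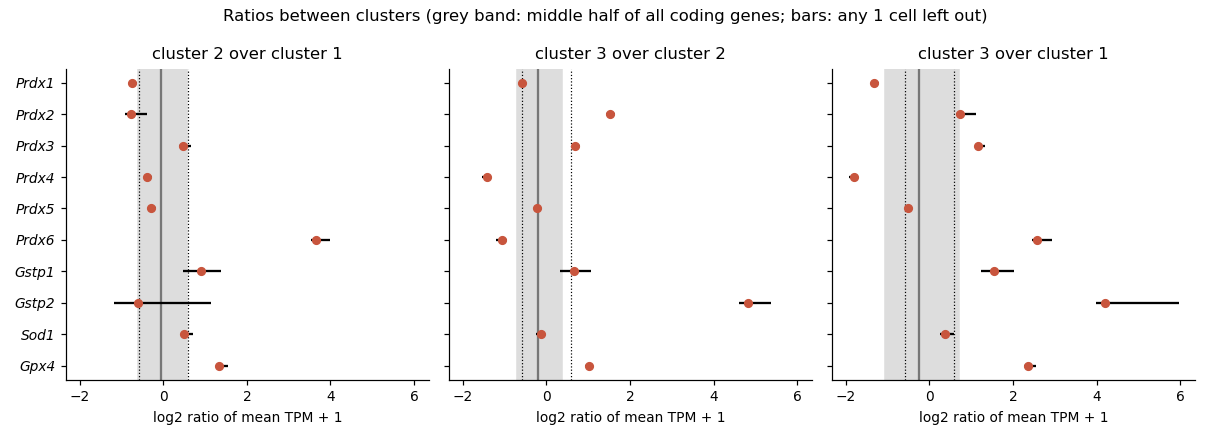
Log2 ratio of mean TPM plus 1 of each gene (points) between clusters, with the range when any 1 cell is left out (bars), the quartiles of all coding genes tested (grey band), their median (grey line) and 1.5-fold (dotted lines). Prdx6 lies farthest to the right for cluster 2 over 1 and Gstp2 for the other comparisons, and the bar of Gstp2 crosses 0 in the step from cluster 1 to 2.

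The summed TPM of the 10 genes was lower in the later clusters, and Prdx1 made up most of the sum. It was 4737 ± 1962 (SD, n = 19) in cluster 1, 3456 ± 1464 (SD, n = 88) in cluster 2 and 2424 ± 919 TPM (SD, n = 31) in cluster 3. These are shares of the RNA in a cell, so a smaller share and fewer molecules cannot be told apart without the spike-ins. Divided by spike-in TPM, the median of all coding genes moved from -0.21 to 0.68 for cluster 3 over 2 and from -0.24 to 0.48 for cluster 3 over 1. On that scale 7 of the 10 genes were higher and none lower by 1.5-fold in cluster 3 than in 2, beside 54.97% and 9.06% of all genes. From cluster 1 to 3, 7 were higher and Prdx4 alone was lower, beside 46.7% and 21.5% of all genes, and the log2 ratio of Prdx1 for cluster 3 over 1 came to -0.51. For cluster 3 over 1 the median of the 10 genes exceeded that of all genes by 1.19 in TPM and by 1.42 on the spike-in scale.

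Along the order of cells on the first component of the 20 genes, in 5 bins of 27 or 28 cells, Prdx1 had a mean of 3287, 2218, 1862, 1344 and 1381 TPM, and Prdx4 of 928, 669, 724, 421 and 221 TPM. Most of the difference in Prdx1 lay before the middle of the order, and that in Prdx4 after it. Prdx6 had means of 56.5, 209, 236, 139.4 and 98.4 TPM, highest in the middle bin. Gstp2 had means of 4.14, 0.0633, 1.75, 3.65 and 70.8 TPM, with most of it in the last bin. Gpx4 had means of 25.98, 38.2, 70.7, 68.6 and 120.7 TPM. Across cells the rho with the order was -0.58 for Prdx4, -0.57 for Prdx1, 0.49 for Gpx4 and 0.41 for Gstp2, and below 0.30 in size for the other 6. The order itself had a rho of 0.30 with the mitochondrial share of reads.

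**Figure D4:**
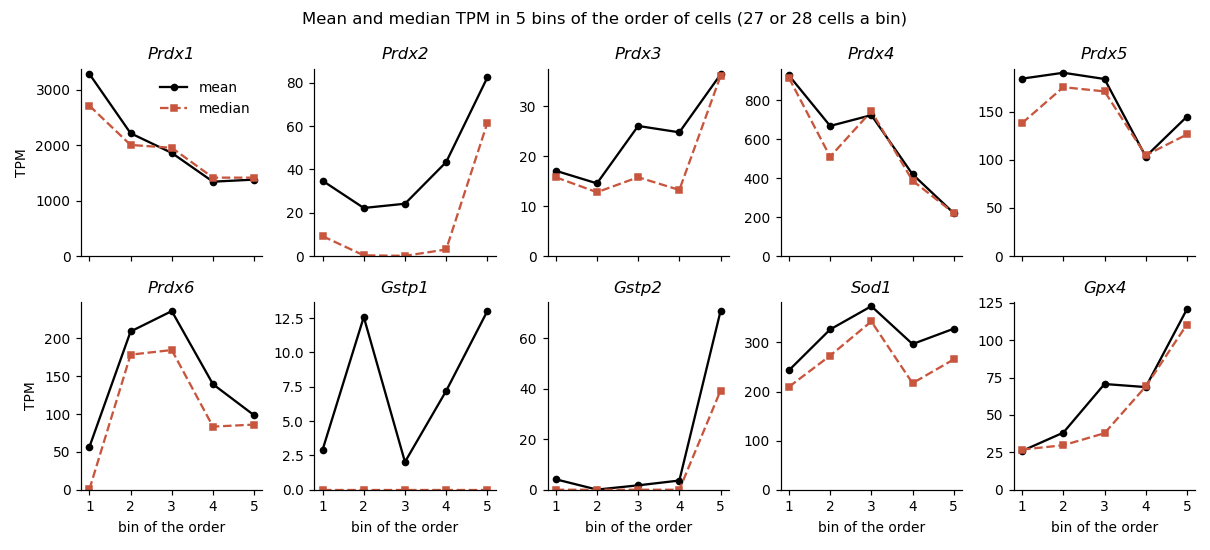
Mean (black) and median (red) TPM of each gene in 5 bins of the order of cells on the first component of the 20 feature genes, with 27 or 28 cells per bin. Prdx1 and Prdx4 are highest in bin 1, Prdx6 in bin 3, and Gpx4 and Gstp2 in bin 5.

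Cells with Zp3 of at least 10 TPM (47 cells) and under 0.1 TPM (57 cells) were also compared, and Zp3 is one of the genes behind the clusters. The mean was 42.8 against 2.88 TPM for Gstp2, 93.8 against 52.3 for Gpx4, 31.6 against 19.1 for Prdx3, 60.2 against 39.2 for Prdx2, 310 against 724 for Prdx4 and 1338 against 2229 for Prdx1. Gstp1 and Prdx6, higher from cluster 1 to 3, were under 1.5-fold here and in the other direction, with 7.63 against 9.58 and 125.4 against 181 TPM. The log2 ratio was -0.28 for Prdx5 and -0.24 for Sod1.

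In TPM few of the genes had levels that followed each other from cell to cell. Of 45 pairs 4 had a rho of 0.3 or more across all cells and none had -0.3 or less, and the median was 0.052. The highest was 0.58 for Prdx1 with Prdx4, which was 0.48 within cluster 2, followed by 0.43 for Prdx3 with Gpx4, 0.37 for Prdx2 with Gstp2 and 0.30 for Prdx1 with Prdx5. The rho of Prdx2 with Gstp2 was -0.019 within cluster 2. The count depends on the scale: with TPM divided by spike-in TPM, which a cell's spike-in share moves for all its genes at once, 26 of 45 pairs had 0.3 or more, with 0.73 for Prdx1 with Prdx5. Values of a cell share its library and depth, so these are descriptions.

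Among 7040 coding genes, those whose levels were most like each gene differed from one to the next, save that Prdx3 and Gpx4 shared Pfn1. For Prdx1 they were Atp5f1 (rho 0.74), of the ATP synthase, Tktl1 (0.71) and the ribosomal protein Rplp0 (0.69). For Prdx4 they were Hspa5 (0.73), the main chaperone of the endoplasmic reticulum, Spint2 (0.71) and the germ cell surface protein Tex101 (0.71). For Sod1 they included Uqcr10 (0.75) and Ndufa1 (0.74), of the respiratory chain. Sod1 differed between runs of library titles, as given above, and the part of this in its rho values was not tested. The other 7 genes had weaker partners, of 0.56 at most: Tomm6 (0.56), Pfn1 (0.56) and Slc25a5 (0.55) for Gpx4, Plin3 (0.53), Prr13 (0.52) and Pttg1 (0.50) for Gstp2, and Dlk1 (0.51), Akr1b3 (0.50) and Tspan13 (0.49) for Prdx6.

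The 7 pairs of near-identical libraries, all in cluster 2, were picked because their libraries agreed over all genes, so a small spread within them follows in part from that choice, and the values are a description. The SD of log2(TPM + 1) within pairs was 0.055 for Prdx1, 0.028 for Prdx4, 0.066 for Prdx6 and 0.085 for Prdx5, while the SD between the 88 cells of cluster 2 was 1.41, 2.29, 2.84 and 2.41. It was larger for Gpx4 (0.24 within pairs, 2.61 between cells) and Prdx2 (0.42 and 2.76). Prdx1 had 4067 and 3959 TPM in one pair and 1550 and 1464 in another. For Gstp1 the SD was 0.32 within pairs and 1.69 between cells, and for Gstp2 0.34 and 0.88, but in 6 of 7 pairs each of them was under 1 TPM. Whether the pairs share only the cDNA or also the library cannot be told from the labels, so losses before amplification are not in this measure.

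**Figure D5:**
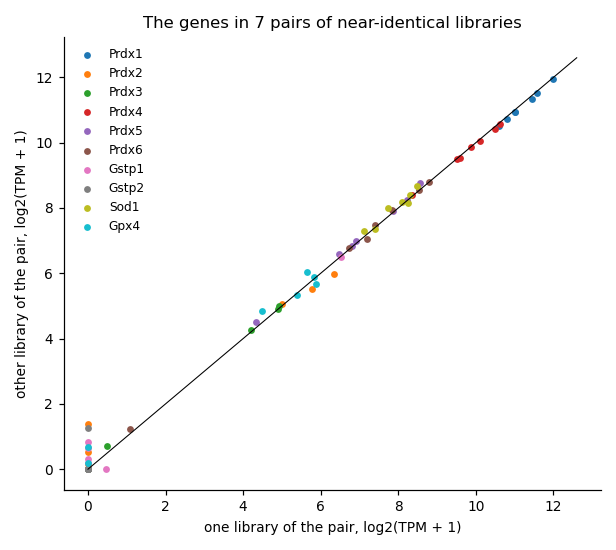
The 10 genes in the 7 pairs of near-identical libraries, each point 1 gene in 1 pair, as log2(TPM + 1) in one library against the other, with the line of equal values. Points above 4 lie near the line, and the points farthest from it are low values of Prdx2, Gstp2 and Gstp1.

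The transcript lengths behind the TPM differ between genes. Salmon's abundance-weighted length had a median of 167 bases for Prdx6 (141.6 to 1279), 189 for Gpx4, 330 for Prdx4 and 382 for Prdx1, so short isoforms carry much of their TPM, while it was 1478 for Prdx3 and 646 for Sod1. In CPM, the share of a cell's reads without regard to length, the means were 1168 for Prdx1, 395 for Prdx4, 132.8 for Prdx5, 119.4 for Sod1 and 112.95 for Prdx6. Sod1 thus ranked behind Prdx5 in CPM and ahead of it in TPM.

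The wider pathway held genes in both directions. Of 96 related genes 94 were measured, 80 had a mean of at least 1 TPM, and from cluster 1 to 3 28 of 76 tested were higher and 23 lower, beside the 27.3% and 38.9% of all coding genes given above, against which the group counts that follow are too small to set the groups apart. In the thioredoxin system, which recycles peroxiredoxins, 4 of 10 were higher and 3 lower. Mean TPM in clusters 1, 2 and 3 was 52.6, 78.1 and 177 for Txn2, the mitochondrial thioredoxin. It was 45.9, 48.7 and 75.99 for Txn1, and 139.5, 126.03 and 358 for Txnip, which binds thioredoxin. Sulfiredoxin (Srxn1), which repairs overoxidised peroxiredoxins, was found in 4 cells.

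In glutathione synthesis and reduction 6 of 13 were higher and 5 lower. G6pdx, which makes NADPH, had 10.6, 16.5 and 75.04 TPM, and Slc7a11, the cystine transporter, 1.89, 7.44 and 14.8 TPM. Me1, another source of NADPH, had 38.1, 9.09 and 1.62 TPM. Among the other glutathione transferases 8 of 15 were higher and 3 lower, and Gstm5 had 106.7, 41.3 and 13.8 TPM while Gsta4 had 2.04, 6.11 and 23.3 and Gstm4 2.13, 13.2 and 22.3. Other glutathione peroxidases were scarce, with 0 of 3 higher and 2 lower, and Gpx3 had 16.02, 6.92 and 3.89 TPM.

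In selenoprotein synthesis, which puts selenium into proteins such as Gpx4, 0 of 7 were higher and 3 lower from cluster 1 to 3, where 38.9% of all coding genes were lower: Sepsecs had 29.1, 23.8 and 8.17 TPM, Sephs2 152, 123.5 and 59.6, and Eefsec 182, 208 and 94.5. In iron handling and lipid peroxidation 3 of 9 were higher and 3 lower: Aifm2, which also guards against ferroptosis, had 2.63, 14.5 and 25.9 TPM, Acsl4, which puts oxidisable fatty acids into lipids, 5.01, 6.003 and 12.52, and Tfrc, the transferrin receptor, 47.98, 45.6 and 12.4.

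In the Nrf2 axis, whose factors bind the antioxidant response element, 3 of 10 were higher and 3 lower. Nfe2l2, which encodes Nrf2, had 20.3, 21.7 and 5.86 TPM, its inhibitor Keap1 38.9, 26.7 and 13.7, and Maff, a small Maf partner, 1.603, 7.82 and 12.3. Among superoxide and catalase genes 2 of 5 were higher and 0 lower, with 58.01, 114.1 and 72.8 TPM for Sod2, the mitochondrial dismutase, 38.7, 65.9 and 79.5 for Ccs, which loads copper into Sod1, and 724, 962 and 924 for Park7. Among glutaredoxins 2 of 4 were higher and 1 lower, with 111.5, 62.3 and 28.1 TPM for Glrx2, 22.8, 37.2 and 58.1 for Glrx5, and 6.59, 1.25 and 19.1 for Glrx.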

How the data were processed

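Each library held the RNA of 1 germ cell of newborn mouse ovaries, amplified by Smart-seq2 with ERCC spike-ins. The authors ran Salmon against mm10 plus the spike-ins, and the deposited values are TPM, estimated read counts and Salmon's lengths in bases for every symbol; the annotation release is not given in the sources used here. TPM include mitochondrial genes and spike-ins in their total. The deposited estimated counts need not be whole and served for depth, reads and CPM only.

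The genes and lists were chosen with earlier results of these data known. Coding genes (19767) came from GENCODE M21 and RefSeq. Near-identical libraries (r above 0.95) were merged, which was decided after seeing the data and gave 139 cells, of which 138 had Ddx4 of at least 1 TPM. Seurat 5.3.0 in R 4.3.3 clustered them on the 20 feature genes (10 components, 20 neighbours, resolution 0.2); the clusters are called by number and are not the study's own assignments, so differences may come from that. No doublet caller was run, since cells were picked singly. A coding gene entered a ratio if its mean reached 1 TPM in one of the clusters compared, and 1 TPM was added to each mean. A gene counts as found at 0.1 TPM, unless 1 TPM is named. Genes most alike were searched among those with a mean of at least 10 TPM and found in at least 50% of cells. The 3 most alike are named for the genes given, save 1 that is not reported here. Related genes are named where their mean reached 10 TPM in a cluster and they were among the 3 largest ratios of cluster 3 over cluster 1 in their group; Srxn1 is named outside that rule, chosen after its values were seen. Python 3.11.15, pandas 2.3.3, NumPy 2.4.6 and SciPy 1.17.1 were used. The code for the ratios was run on simulated counts. That simulation did not imitate genes absent from most cells, so it does not cover ratios such as those of Gstp1 and Gstp2. Intervals are exact (Clopper-Pearson). The limits of the authors on reads, mitochondrial and spike-in share, applied to estimated counts, kept all 146 libraries. Sequences were read from GRCm38 (GENCODE M21) and from RefSeq windows. Alternatives were other scalings, pseudocounts, clusters, orders and cells; those that leave out cells rich in mitochondrial reads or globin, or count each library, were added after seeing the data.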

Additional observations from a re-analysis of the deposited data

How the results depend on the processing

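No paired analysis was possible because all cells form 1 group without replicates. Of 366 ratios of single genes recomputed under 13 alternatives, 327 kept their side of 1.5-fold and 320 kept both that and their sign; the causes of the other changes were not tested. When any 1 cell was dropped, the number of genes higher ranged from 2 to 4 for cluster 2 over 1, from 4 to 5 for cluster 3 over 2 and stayed at 6 for cluster 3 over 1, and the number lower ranged from 2 to 3, 2 to 3 and stayed at 2. Gstp2 for cluster 2 over 1 ranged from -1.17 to 1.15 in this way, and was 0.45 with Gstp1 and Gstp2 summed.

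In CPM 5 genes were higher in cluster 2 than in 1, beside 27.8% of all genes. With clusters from the 2000 most variable genes 1 was higher in that step and 4 in each of the others, beside 19.2%, 18.1% and 21.6% of all genes for cluster 2 over 1, 3 over 2 and 3 over 1. With those clusters Gstp1 for cluster 3 over 1 (0.55) and Prdx3 for cluster 3 over 2 (0.49) were under 1.5-fold, the median for cluster 3 over 1 was 0.35, and the log2 ratio was 0.39 for Prdx2 and -0.18 for Gstp1 (cluster 2 over 1) and -0.54 for Prdx6 (cluster 3 over 1). As a difference of mean log2(TPM + 1), Gstp1 was at -0.14 for cluster 2 over 1. On the spike-in scale 0 genes were lower in cluster 3 than in 2 and 1 was lower than in cluster 1, the median for cluster 3 over 2 was 1.33 and Prdx6 was at 0.20 there. Within cluster 2 the rho was 0.25 for Prdx1 with Prdx5 and -0.019 for Prdx2 with Gstp2. With each library counted as a cell, Prdx1 was lower in cluster 3 than in 2 (-0.60) and Gstp1 was under 1.5-fold (0.57).

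Prdx1 had a median of 10473 reads per cell, while levels under 1 TPM rest on few reads, and absence there cannot be told from loss of RNA before amplification.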
